A study of Mus musculus with 8 samples.

Results

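Cyclic nucleotide phosphodiesterases cut cAMP and cGMP and so end the signals that these second messengers carry. The genes followed here through the striatum of 8 inbred mouse strains were Pde1a, Pde1b, Pde1c, Pde2a, Pde3a, Pde4b, Pde4d, Pde7b, Pde8b and Pde10a. They were chosen by name, 10 of the 32285 genes in the deposited count matrices, and all 10 were found there. Nuclear RNA was read from single nuclei of 32 mice, 12 weeks of age, by 10x Genomics Multiome sequencing, a method that measures RNA and open chromatin in 1 and the same nucleus. Each strain had 4 mice. The wild-derived strains were CAST/EiJ, WSB/EiJ and PWK/PhJ, and the others were C57BL/6, A/J, NZO/HlLtJ (an obese strain), NOD/ShiLtJ (a strain prone to diabetes) and 129S1/SvImJ. C57BL/6 is named C57BL/6J in the design text and C57BL/6NJ in the nucleus table, so the substrain is not given here. Each of 4 batches pooled 1 mouse of every strain, 4 male and 4 female, and the sex of each mouse is not given. The authors' annotation sorts 55672 nuclei into 18 clusters, and a mouse contributed 944 to 4416 of them.

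In striatal projection neurons, dopamine acts through cAMP in opposite directions: the D1 receptor of direct pathway neurons raises it and the D2 receptor of indirect pathway neurons lowers it. Phosphodiesterases set how long each signal lasts. Pde10a, Pde1b and Pde7b are known for their presence in these neurons, and inhibitors of the Pde10a enzyme have been tried as drugs for disorders of the striatum. The Pde4, Pde7 and Pde8 enzymes cut cAMP, while the Pde1 enzymes, which calcium and calmodulin switch on, Pde2a, which cGMP stimulates, Pde3a, which cGMP inhibits, and Pde10a can cut both nucleotides.

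Starts of these genes were set against the accessible chromatin around them. The deposited index lists 291715 accessible regions without a value per nucleus, and the table of RefSeq starts used here (GRCm38.p6, the build that the submitters' processing notes name) gave 28 start sites for 9 of the 10 genes. It does not hold every start: the first listed start of Pde4b, for example, lies inside the gene, which begins at chr4:102087332. A listed region touched the window from 250 bases before to 50 after the start at 16 of the 28 sites and in 6 of the 9 genes, beside 53.1% of all 32851 RefSeq windows. Of the listed starts, 4 of 4 of Pde4b, 4 of 5 of Pde2a and 4 of 5 of Pde8b lay under a region. In Pde1a, Pde2a and Pde8b more than 1 start shared the same region, so the 16 sites are not separate regions. None of the listed starts of Pde10a, Pde7b or Pde4d lay under a region, although 111, 94 and 187 regions lay within these genes. The listed starts of Pde10a and Pde7b also lie inside the genes, which begin at chr17:8525187 and, on the minus strand, at chr10:20725078. Whether those outer starts lie under a region was not examined. The cAMP response element TGACGTCA, searched on both strands, was in none of the 28 windows of 250 bases before a start and in 1.55% of all such windows. Its half-site TGACG, which the full element contains, was searched in the same way and was in 2 of the 28, 1 of Pde4b and 1 of Pde1a, and in 17.8% of all windows. A match of letters is not a binding site. The Pde4b window is shown because it holds a half-site, in capitals, under an accessible region, and the Pde1b window because that gene's first start also lies under a region and differs between strains below. Both are the 250 bases before the start, 5′ to 3′ on the plus strand of GRCm38.p6:
Pde4b, chr4:102421305-102421554: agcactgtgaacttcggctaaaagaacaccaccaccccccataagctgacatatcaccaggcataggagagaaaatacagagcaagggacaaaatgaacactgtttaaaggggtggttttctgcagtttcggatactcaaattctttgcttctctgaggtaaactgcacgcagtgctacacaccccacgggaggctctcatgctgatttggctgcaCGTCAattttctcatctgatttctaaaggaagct
Pde1b, chr15:103502784-103503033: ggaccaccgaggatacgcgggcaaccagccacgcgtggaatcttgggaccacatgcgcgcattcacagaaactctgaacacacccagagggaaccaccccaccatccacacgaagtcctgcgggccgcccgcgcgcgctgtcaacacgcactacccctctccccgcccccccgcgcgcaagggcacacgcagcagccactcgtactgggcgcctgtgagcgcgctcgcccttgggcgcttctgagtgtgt
The 2 windows differ in base composition, with 46.0% G and C in the Pde4b window and 67.2% in the Pde1b window.

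The genes also differ in size. In RefSeq GRCm38.p6, Pde4d spans 1302 kb (chr13:108654177-109955969) and Pde1b 27.0 kb (chr15:103503034-103530056), and nuclear RNA counts include unspliced transcripts. Levels are therefore compared between cell types and strains for 1 gene at a time, and not between genes.

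A batch held 109337007 to 133840909 counts over all barcodes. Its annotated nuclei, the ones used here, held 43538698 (batch 3) to 77698312 (batch 2). Their depth was 3232 to 4931 unique molecular identifiers (UMIs, counts of original RNA molecules) per nucleus in the median of a batch. Batch 3 was the shallowest. Pairs of batches shared 604 to 1008 cell barcodes, and 188 to 328 among annotated nuclei. The cluster names were checked against marker genes. Drd1 and Pdyn were highest in Drd1+ neurons, and Drd2, Penk and Adora2a in Drd2+ neurons. Otof, Casz1 and Col11a1, markers of eccentric projection neurons, were highest in the cluster Drd1+ neuron_2. Other markers went against the names. Rgs5, a mural marker, had 1854 CPM in endothelium and 403 CPM in mural cells (CPM: counts scaled to a total of 1000000 for the library or cluster), while Pdgfrb and Vtn were highest in mural cells. Tac1, a direct pathway marker, had 612 CPM in Drd1+ neuron_2 and 310 in Drd1+ neurons. Ppp1r1b, a marker of all projection neurons, was highest in the cluster Unknown_2 (183 CPM, beside 160 in Drd1+ neurons). Pdgfra, a marker of oligodendrocyte precursors, was highest in fibroblasts (347 CPM, beside 298 in Polydendrocyte/Oligodendrocyte). Slc17a6, a marker of excitatory neurons, was highest in Nxph1+ interneurons, at 13.7 CPM. Markers of projection neurons were detected in every cluster: the summed level of Ppp1r1b, Rgs9, Bcl11b, Drd1 and Drd2 was 11.5% to 69.8% of the mean of Drd1+ and Drd2+ neurons in the other clusters, highest in Drd1+ neuron_2 (69.8%), mural cells (68.4%) and endothelium (42.8%). Single markers differed widely within a cluster, so the sum does not measure projection neuron RNA alone. In oligodendrocytes Rgs9 was at 4.82% and Ppp1r1b at 73.8% of that mean, in Chat+ interneurons Drd1 at 2.7% and Drd2 at 158%, and in Sst+ interneurons Drd2 at 0% and Drd1 at 116%.

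To ask which cell types carry each gene, counts were summed per mouse and cluster and given as CPM over mice with at least 10 nuclei, in the 15 clusters with at least 3 such mice. These levels are a description without a test, since the clusters were made from the same counts. Projection neurons were highest for 5 of the 10 genes (Pde10a, Pde7b, Pde2a, Pde1b and Pde1c), Pde4b in oligodendrocytes, Pde4d and Pde1a in the first cluster of Slc17a7+ excitatory neurons, Pde8b in mural cells and Pde3a in Chat+ cholinergic interneurons. Of the 14 neighbouring pairs in the order of a gene, 0 to 2 were further apart than their standard deviations together. That spread includes strain differences and leaves out that clusters share mice. It therefore does not show that an order varied from mouse to mouse. Within mice, Pde10a was higher in Drd2+ than in Drd1+ neurons in 32 of 32, and Pde1b in 17 of 32.

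**Figure D1:**
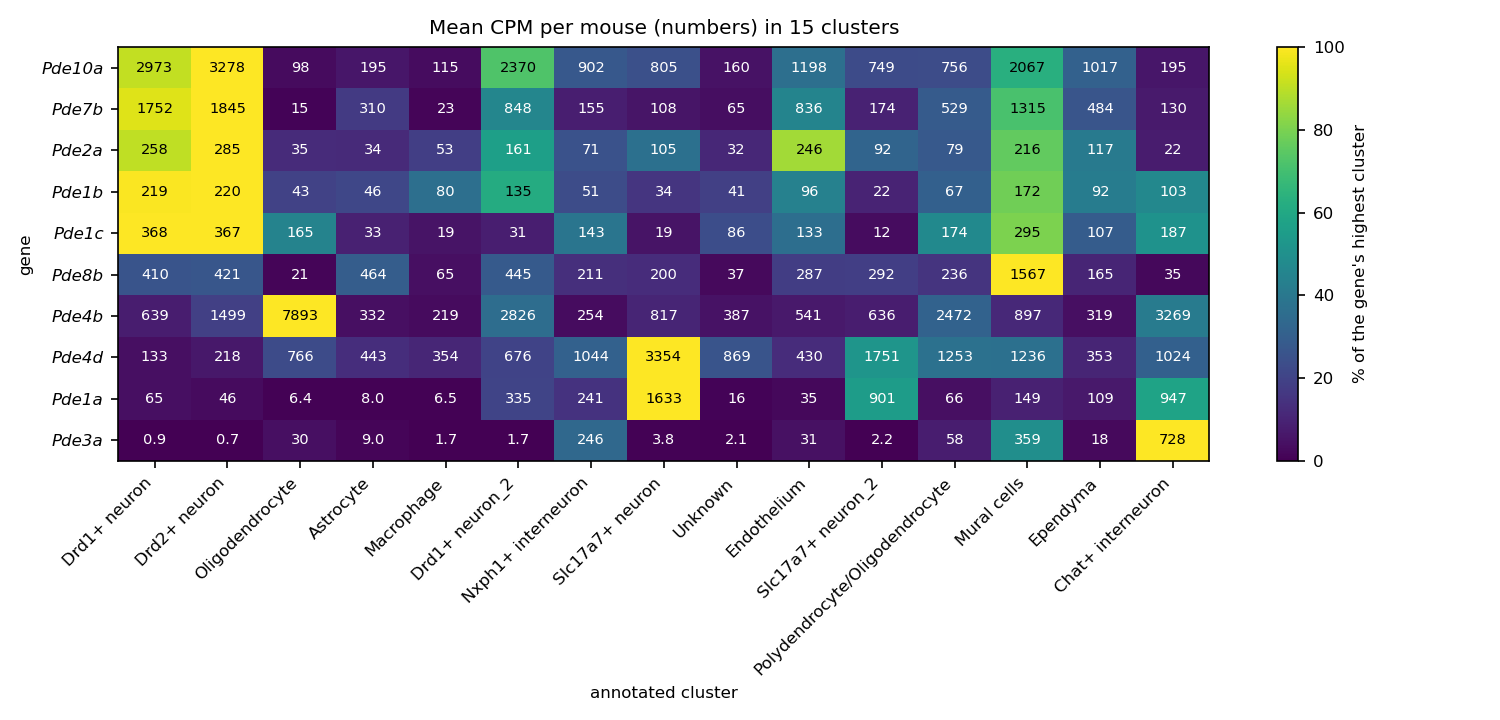
Mean CPM over mice of the 10 genes (rows) in 15 annotated clusters (columns), written in each cell and coloured as percent of the gene's highest cluster. Pde10a, Pde7b, Pde2a, Pde1b and Pde1c peak in the Drd1+ or Drd2+ neurons at the left, whereas Pde4b reaches 7893 CPM in oligodendrocytes and Pde4d 3354 CPM in Slc17a7+ neurons.

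Among the enzymes that cut both nucleotides, Pde10a was at 2973 CPM ± 386 in Drd1+ neurons and 3278 ± 431 in Drd2+ neurons (SD, n = 32 mice each). It was higher in Drd2+ than in Drd1+ neurons in 32 of 32 mice, by 1.1 times in the mean. Drd1+ neuron_2 followed at 2370 ± 444 and was below Drd1+ neurons in all mice but 1. In oligodendrocytes Pde10a stood at 97.5 ± 28.9 CPM, 3.12% of the projection neuron mean, where the neuronal marker Rgs9, a regulator of G protein signalling, stood at 4.82%. In mural cells it was 66.1% of that mean and in endothelium 38.3%, within the range of the 5 neuronal genes there (45.1% to 103% and 35.5% to 67.3%). Expression by mural or endothelial cells and RNA from projection neurons cannot be told apart for this gene. After thinning every nucleus to 1000 UMIs, a Pde10a UMI was expected in 91.7% of Drd1+ nuclei (99.8% without thinning) and 8.71% of oligodendrocytes (14.4% without thinning). Median depths were 6505 and 1640 UMIs, and 15385 of 15395 and 11080 of 12066 nuclei were deep enough to be thinned.

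Pde2a had 258 CPM ± 32.4 in Drd1+ and 285 ± 42.6 in Drd2+ neurons (n = 32), and was higher in Drd2+ neurons in 28 of 32 mice. Endothelium was close behind with 246 ± 61.2 (n = 29), 90.5% of the projection neuron mean and above the 5 neuronal genes there (at most 67.3%). Pde1b, a calmodulin-dependent enzyme of the striatum, had 219 ± 30.5 and 220 ± 30.3 CPM in Drd1+ and Drd2+ neurons. Pde1b was higher in Drd2+ neurons in 17 of 32 mice, so the 2 neuron types did not differ beyond their spread.

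Pde1c separated the projection neuron clusters. It had 368 CPM ± 148 in Drd1+ and 367 ± 124 in Drd2+ neurons, but 31.4 ± 25.0 in Drd1+ neuron_2, which was lower in 32 of 32 mice. Oligodendrocytes held 165 ± 47.6 CPM, 44.9% of the projection neuron mean. Pde1a showed the reverse among these neurons. It had 65.0 ± 46.6 CPM in Drd1+, 46.5 ± 31.3 in Drd2+ and 335 ± 113 in Drd1+ neuron_2 (n = 32), and the first Slc17a7+ cluster reached 1633 ± 232 (n = 20). That excitatory cluster lay above each other one of the 15 by more than the standard deviations together.

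Pde3a was nearly absent from projection neurons, with 0.852 CPM ± 0.543 in Drd1+ and 0.694 ± 0.549 in Drd2+ neurons. It had 728 ± 460 CPM in Chat+ interneurons (n = 3), 359 ± 200 in mural cells (n = 20), and 246 ± 147 in Nxph1+ interneurons (n = 32). The ranges of these 3 clusters overlapped. Without batch 2 or without batch 3 mural cells came first in place of Chat+ interneurons. Chat+ interneurons had 3 mice, the fewest a ranked cluster could have. A run that leaves out 1 of these mice therefore cannot test their rank. At 1000 UMIs a Pde3a UMI was expected in 31.8% of mural nuclei, 17.3% of Nxph1+ nuclei and 0.0809% of Drd1+ nuclei (47.2%, 33.1% and 0.513% without thinning), and in 53.9% of Chat+ nuclei over the 2 mice with enough of them.

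Among the cAMP-specific enzymes, Pde7b was highest in the large projection neuron clusters, with 1752 CPM ± 287 in Drd1+ and 1845 ± 316 in Drd2+ neurons, and was lower in Drd1+ neuron_2 (848 ± 185) in all 32 mice. It was 0.831% of the projection neuron mean in oligodendrocytes and 17.2% in astrocytes. In mural cells Pde7b was at 1315 ± 534 CPM, 73.1% of that mean, and in endothelium at 46.5%. Both lay within the range of the 5 neuronal genes there (45.1% to 103% and 35.5% to 67.3%). Expression by these cells and RNA from projection neurons cannot be told apart for Pde7b. Pde8b was at 410 ± 61.7 in Drd1+, 421 ± 46.7 in Drd2+ and 464 ± 77.6 CPM in astrocytes, levels that overlapped. Mural cells stood apart with 1567 ± 448 CPM (n = 20), 377% of the projection neuron mean, above all 5 neuronal genes there.

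Pde4b, one of the main cAMP enzymes targeted by anti-inflammatory Pde4 inhibitors, had the largest ratio of Drd2+ to Drd1+ neurons among the 10 genes. It had 639 CPM ± 193 in Drd1+, 1499 ± 392 in Drd2+ and 2826 ± 546 in Drd1+ neuron_2 (n = 32). Drd2+ neurons were higher than Drd1+ neurons in 32 of 32 mice, by 2.35 times in the mean. Oligodendrocytes reached 7893 ± 606 CPM, 12.4 times the level of Drd1+ neurons, and no other of the 15 clusters came within their spread. Pde4d, its relative, was lowest of the 15 clusters in Drd1+ neurons at 133 ± 41.8 and next in Drd2+ neurons at 218 ± 58.0, again higher in Drd2+ neurons in 32 of 32 mice. In Drd1+ neuron_2 it was at 676 ± 165, above Drd1+ neurons in 32 of 32 mice. The first Slc17a7+ cluster had 3354 ± 401 CPM and Nxph1+ interneurons 1044 ± 177.

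Strain was then compared within each cluster. In 9 clusters with at least 3 mice of every strain, edgeR's quasi-likelihood test of strain was run on summed counts with batch in the model, with Benjamini-Hochberg adjustment over all genes of the cluster and a call at an adjusted p under 0.05. CPM of strains below are TMM-scaled and refer to the counts of the genes tested, so in shallow clusters they are higher than the levels above. Genes that failed the filter on low counts were not tested. In both Drd1+ and Drd2+ neurons 9 of the 10 genes were tested and the same 7 were called: Pde10a, Pde1b, Pde1c, Pde2a, Pde4b, Pde4d and Pde8b. Strain differences were common there, with 61.7% of all 13431 tested genes called in Drd1+ and 55.9% of 12799 in Drd2+ neurons. The median F statistic of the 9 genes was 11 in Drd1+ and 10.8 in Drd2+ neurons, beside 3.38 and 2.95 over all genes tested there, a description of members that were chosen with earlier results of these data known. Among the other 7 clusters, the median F of the members tested was 4.04 (1.42 for all genes) in Drd1+ neuron_2 and 3.66 (1.45) in macrophages. In astrocytes it was 2.36 (1.4) and in Polydendrocyte/Oligodendrocyte 1.69 (1.1). It was 1.83 (1.75) in oligodendrocytes, 1.34 (1.14) in Nxph1+ interneurons and 1.21 (1.14) in endothelium. Because the 2 neuron types come from the same mice, they are not independent of each other.

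Each strain was also set against the mean of the other 7. CAST/EiJ differed in 5 of the 9 tested genes in Drd1+ and in 5 in Drd2+ neurons, beside 32.8% and 28.1% of all genes called for this strain. NZO/HlLtJ likewise differed in 5 and 5, beside 19.7% and 18.5%. WSB/EiJ differed in 4 and 2 (17.0% and 15.3% of all genes), A/J in 3 and 2 (17.2% and 15.2%), and PWK/PhJ in 2 and 4 (34.3% and 30.3%). C57BL/6 differed in 2 and 3 (13.9% and 11.1%), 129S1/SvImJ in 2 and 1 (12.3% and 11.1%), and NOD/ShiLtJ in 1 and 1 (15.9% and 12.1%). In all, 24 contrasts were called in Drd1+ and 23 in Drd2+ neurons. The 8 contrasts of a gene share mice. The highest and lowest strain of a gene were picked from the same values. A lack of overlap between their mice is therefore a description and not a test. It also occurred where strain was not called, as for Pde2a in astrocytes (strain term, adjusted p = 0.903).

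**Figure D2:**
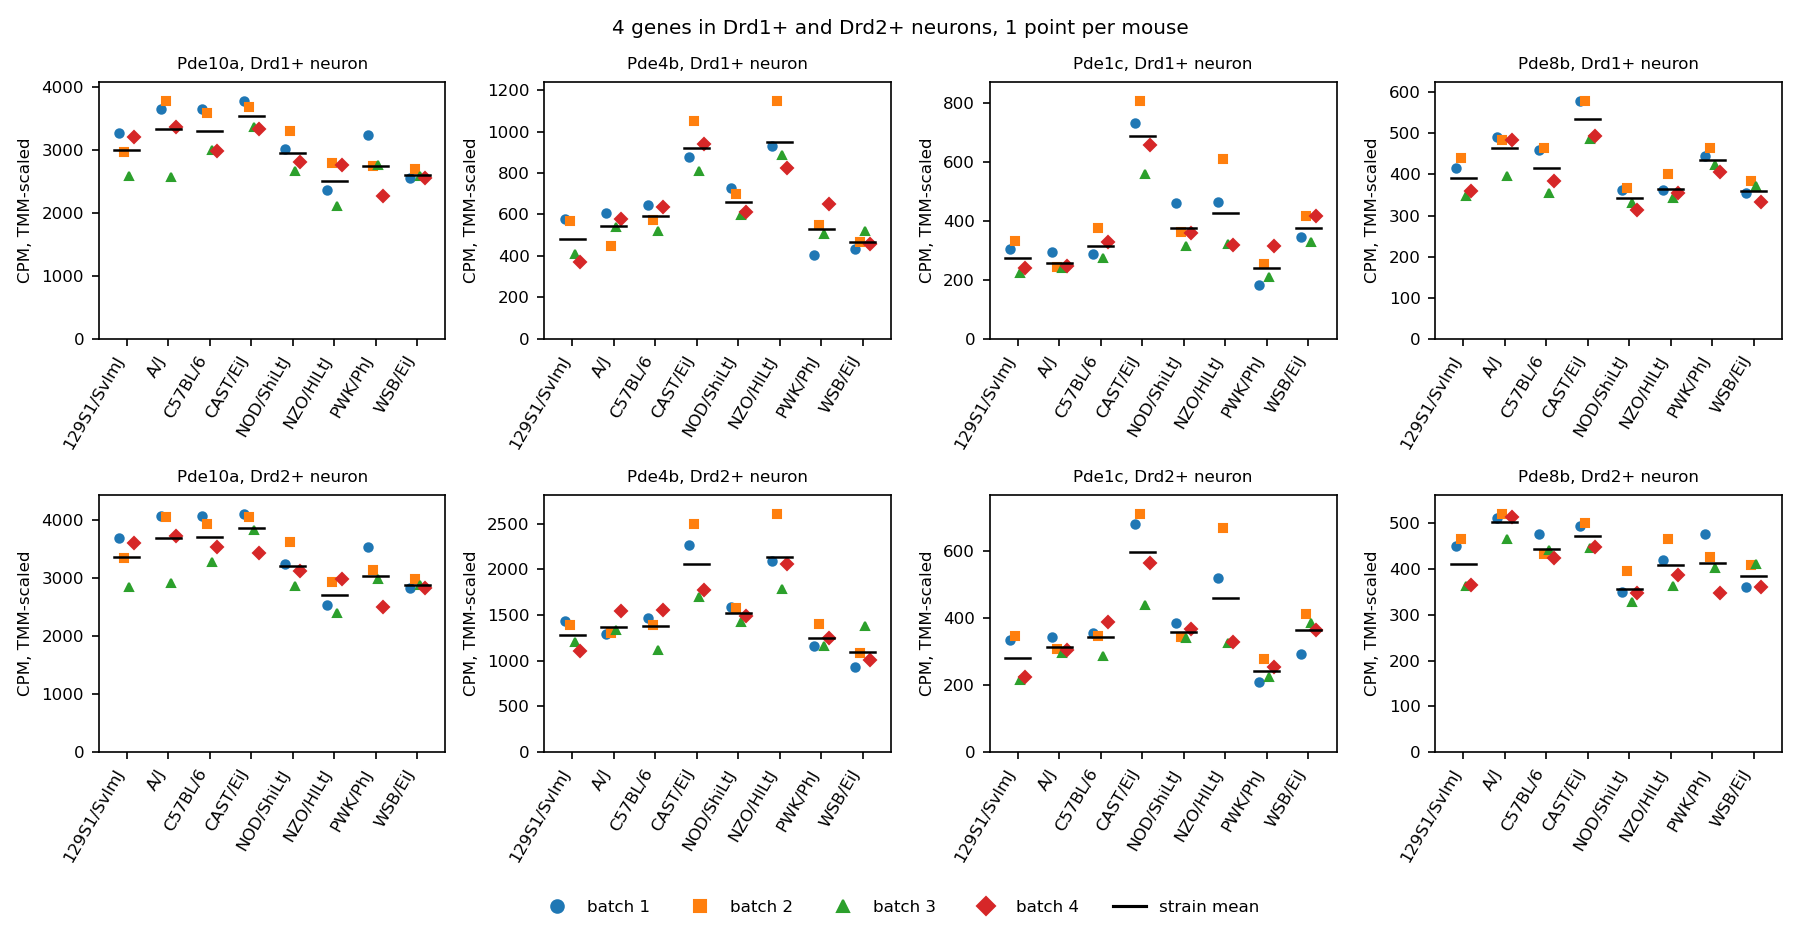
TMM-scaled CPM (y axis, from 0) of Pde10a, Pde4b, Pde1c and Pde8b by strain (x axis) in Drd1+ neurons (upper row) and Drd2+ neurons (lower row), 1 point per mouse with its batch as symbol and the strain mean as a bar. Pde10a is lowest in NZO/HlLtJ and highest in CAST/EiJ, Pde4b is high in both of these strains, and Pde1c is highest in CAST/EiJ.

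Pde10a was highest in CAST/EiJ. Its 4 mice had 3783, 3677, 3371 and 3331 CPM in Drd1+ neurons, batches 1 to 4, and those of NZO/HlLtJ, the lowest strain, had 2357, 2785, 2108 and 2768 CPM. The ranges did not overlap. Against the other 7 strains, the log2 difference was 0.29 (SE 0.06, adjusted p = 0.000229) in CAST/EiJ and -0.29 (SE 0.06, adjusted p = 0.000992) in NZO/HlLtJ. In Drd2+ neurons of the same mice the differences were 0.27 (SE 0.06, adjusted p = 0.000408) and -0.31 (SE 0.06, adjusted p = 0.000174). WSB/EiJ was also low, at 2595 CPM ± 73.2 in Drd1+ neurons (log2 difference -0.22, adjusted p = 0.0113), a call lost without batch 1, without batch 2 and with no replicate block. Rgs9 was lowest in the same 2 strains, at 652 CPM ± 53.0 in NZO/HlLtJ and 710 ± 28.6 in WSB/EiJ in Drd1+ neurons (811 to 922 in the others) and at 690 and 737 in Drd2+ neurons. Of the other markers in Drd1+ neurons, Ppp1r1b was lowest in NZO/HlLtJ, Bcl11b in WSB/EiJ and Drd1 in PWK/PhJ, and their part in the Pde10a result was not tested. The whole span between strain means was 1.41 times in Drd1+ and 1.42 times in Drd2+ neurons.

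Pde1b was lowest in PWK/PhJ. In Drd1+ neurons its mice had 216, 186, 148 and 148 CPM, and those of C57BL/6, the highest strain, had 270, 271, 248 and 239 CPM. The ranges did not overlap. PWK/PhJ was lower than the other strains by a log2 difference of -0.38 (SE 0.06, adjusted p = 7.96e-07) in Drd1+ and -0.42 (SE 0.06, adjusted p = 1.47e-07) in Drd2+ neurons. C57BL/6 was higher by 0.27 in each (SE 0.05, adjusted p = 0.000304 and 0.000455), and both calls were lost with no replicate block in the model.

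Pde2a was highest in C57BL/6 and lowest in CAST/EiJ. In Drd1+ neurons C57BL/6 had 310, 328, 296 and 290 CPM and CAST/EiJ had 223, 217, 198 and 202 CPM, without overlap. The log2 difference from the other strains was 0.28 (SE 0.05, adjusted p = 0.000192) in C57BL/6 and -0.34 (SE 0.06, adjusted p = 9.33e-06) in CAST/EiJ. CAST/EiJ thus stood low for Pde2a, which cGMP stimulates, and high for Pde10a.

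Pde1c had the widest span of the called genes in Drd1+ neurons, 2.87 times between strain means. CAST/EiJ had 733, 810, 561 and 659 CPM, above every mouse of the other strains except the batch 2 mouse of NZO/HlLtJ at 611. PWK/PhJ, the lowest, had 184, 254, 210 and 315 CPM. The log2 difference was 1.12 in CAST/EiJ (SE 0.11, adjusted p = 2.1e-08) and -0.61 in PWK/PhJ (SE 0.13, adjusted p = 0.000627). In Drd2+ neurons CAST/EiJ stood at 599 CPM ± 125 (log2 difference 0.85, SE 0.12, adjusted p = 7.13e-06).

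Pde4b was high in 2 strains. In Drd1+ neurons NZO/HlLtJ had 932, 1150, 886 and 823 CPM and CAST/EiJ had 879, 1051, 809 and 939 CPM, while WSB/EiJ had 431, 467, 522 and 458 CPM. No mouse of the other 6 strains reached the lowest mouse of NZO/HlLtJ or CAST/EiJ. The log2 differences were 0.69 (SE 0.10, adjusted p = 3.52e-05) in NZO/HlLtJ, 0.65 (SE 0.10, adjusted p = 3.74e-05) in CAST/EiJ and -0.46 (SE 0.12, adjusted p = 0.00722) in WSB/EiJ. In Drd2+ neurons of the same mice, NZO/HlLtJ had 2135 CPM ± 345, CAST/EiJ 2060 ± 385 and WSB/EiJ 1100 ± 198.

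Pde4d was higher in NZO/HlLtJ than in the mean of the other strains. Its mice had 251, 180, 207 and 138 CPM in Drd1+ neurons, beside 85.3, 99.5, 93.9 and 94.7 CPM in C57BL/6, the lowest strain. They overlapped there with mice of NOD/ShiLtJ, at 143 to 167 CPM. In Drd2+ neurons NZO/HlLtJ (318 CPM ± 80.5) overlapped even with A/J, the lowest strain (179 ± 33.2). The contrast of NZO/HlLtJ gave a log2 difference of 0.69 (SE 0.17, adjusted p = 0.00484, lost without batch 3) in Drd1+ and 0.64 (SE 0.13, adjusted p = 0.00102, lost without batch 1) in Drd2+ neurons. The strain term of Pde4d was less firm than those of the other called genes. Its adjusted p of 0.0161 in Drd1+ neurons rose to 0.102 without batch 2 and 0.163 without batch 3, and its 0.00274 in Drd2+ neurons rose to 0.116 without batch 1 and 0.0809 without batch 2.

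Pde8b was highest in CAST/EiJ in Drd1+ neurons (578, 580, 487 and 493 CPM) and lowest in NOD/ShiLtJ (361, 368, 330 and 314 CPM), without overlap. The log2 differences from the other strains were 0.44 (SE 0.05, adjusted p = 3.27e-10) and -0.29 (SE 0.05, adjusted p = 4.01e-05). In Drd2+ neurons of the same mice A/J was highest, with 512, 521, 466 and 515 CPM (log2 difference 0.29, SE 0.05, adjusted p = 6.93e-05). CAST/EiJ was higher than the other strains there by 0.19 (SE 0.06, adjusted p = 0.00858, lost with no replicate block and with no filter on low counts).

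Pde7b and Pde1a were not called in either neuron type. Pde7b ranged from 1552 CPM ± 264 in WSB/EiJ to 1985 ± 464 in PWK/PhJ in Drd1+ neurons (adjusted p = 0.397), and Pde1a from 38.8 ± 42.0 in WSB/EiJ to 105 ± 69.4 in NZO/HlLtJ (adjusted p = 0.745). Mice of 1 strain differed widely for Pde1a: the 4 PWK/PhJ mice had 3.91, 51.3, 27.4 and 168 CPM in Drd1+ neurons, and the same mice had 13.0, 42.7, 32.6 and 113 in Drd2+ neurons. Both genes passed the threshold in both neuron types when no filter on low counts was used (adjusted p = 3.97e-46 for Pde1a and 1.22e-09 for Pde7b in Drd1+ neurons, 8.59e-24 and 0.00469 in Drd2+ neurons). Neither passed it in DESeq2.

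In oligodendrocytes, 4 of 9 tested genes were called, Pde4d, Pde1c, Pde3a and Pde4b, beside 34.8% of all 9082 genes. Pde4d stood sixth of all these genes by its F statistic (adjusted p = 1.68e-57). PWK/PhJ had 1662, 1536, 1884 and 1646 CPM and NZO/HlLtJ 1655, 1597, 1715 and 1617 CPM. A/J had 937, 1117, 1179 and 985 CPM and CAST/EiJ 631, 667, 707 and 737 CPM. The other 4 strains were lower: NOD/ShiLtJ with 364, 401, 396 and 328 CPM, WSB/EiJ with 359, 383, 393 and 316, 129S1/SvImJ with 326, 297, 278 and 319, and C57BL/6 with 171, 257, 177 and 192. PWK/PhJ and NZO/HlLtJ overlapped with each other and lay above all mice of the other 6 strains, and the 4 low strains lay below all mice of A/J and CAST/EiJ. The mean of PWK/PhJ was 8.43 times that of C57BL/6. Rgs9, as a sign of projection neuron RNA in oligodendrocytes, spanned 33.1 to 50.6 CPM between strain means.

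**Figure D3:**
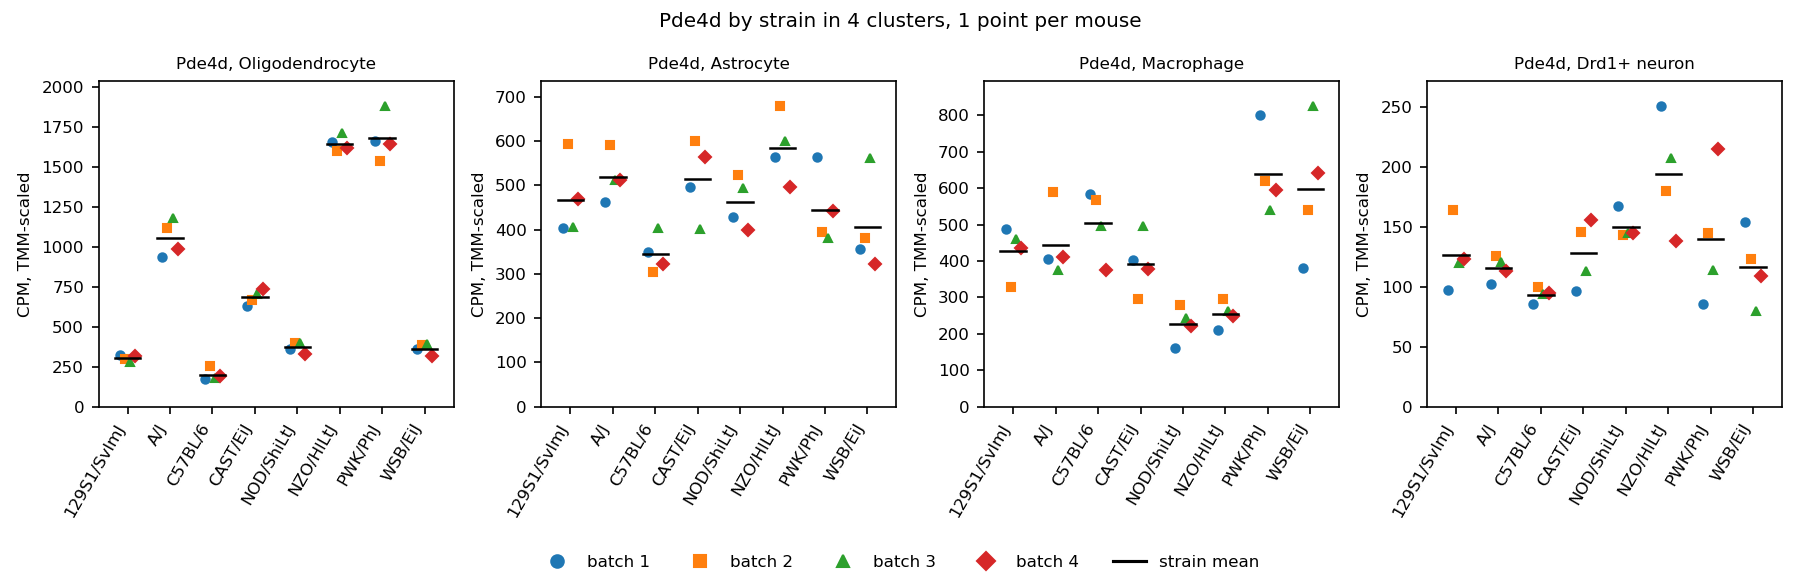
TMM-scaled CPM of Pde4d (y axis, from 0, a separate scale per panel) by strain (x axis) in oligodendrocytes, astrocytes, macrophages and Drd1+ neurons, 1 point per mouse and the strain mean as a bar. Oligodendrocytes split from 199 CPM in C57BL/6 to 1682 CPM in PWK/PhJ with little spread within a strain, and macrophages and astrocytes show other orders of strains.

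The strains ranked in another order for Pde4d in macrophages and astrocytes, a difference that was not tested between glial clusters. In macrophages, where Pde4d was also called (adjusted p = 3.61e-10), PWK/PhJ was again highest with 800, 621, 540 and 595 CPM, but NZO/HlLtJ was among the lowest with 210, 295, 263 and 249 CPM, beside NOD/ShiLtJ with 161, 278, 243 and 222. WSB/EiJ had 380, 541, 827 and 642 CPM there and overlapped with PWK/PhJ. In astrocytes the strain means ran from 345 CPM ± 43.7 in C57BL/6 to 585 ± 76.8 in NZO/HlLtJ (adjusted p = 0.00012, and 0.0645 without batch 2). A test of whether strain acts unequally on Drd1+ neurons and oligodendrocytes, added after these values were seen, called Pde4d (edgeR interaction, adjusted p = 2.31e-16). In PWK/PhJ Pde4d was 3.66 ± 0.61 log2 units higher in oligodendrocytes than in Drd1+ neurons of the same mouse, and in C57BL/6 1.07 ± 0.20 (SD, n = 4 each).

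Pde1c in oligodendrocytes was lowest in CAST/EiJ, the strain in which it was highest in neurons. CAST/EiJ had 116, 69.7, 78.0 and 77.7 CPM, below the 235, 206, 207 and 223 CPM of A/J, the highest strain (adjusted p of the strain term 2.07e-14). In Drd1+ neurons A/J was instead lower than the other strains (256 CPM ± 25.4, log2 difference -0.51, SE 0.12, adjusted p = 0.00561, lost without batch 2). The interaction of strain with Drd1+ neurons and oligodendrocytes had an adjusted p of 1.71e-17. The log2 ratio of oligodendrocytes to Drd1+ neurons of the same mouse was -3.02 ± 0.38 in CAST/EiJ and -0.23 ± 0.07 in A/J (SD, n = 4 each).

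Astrocytes showed still another pattern of Pde1c, with 8 of the 10 genes tested there and 3 called (Pde1c, Pde4d and Pde8b) beside 21.5% of all 8207 genes. A set of 4 strains was high: A/J with 67.8, 74.1, 39.9 and 72.7 CPM, NOD/ShiLtJ with 69.1, 74.0, 69.3 and 39.4, WSB/EiJ with 73.0, 77.4, 20.6 and 62.2, and C57BL/6 with 72.4, 36.7, 47.9 and 51.3. The other 4 were low: NZO/HlLtJ with 21.5, 15.4, 4.35 and 21.2, CAST/EiJ with 19.7, 8.3, 0 and 19.2, PWK/PhJ with 18.6, 0, 10.6 and 10.6, and 129S1/SvImJ with 2.49, 8.91, 7.39 and 9.13. The 2 sets overlapped through 1 mouse, that of WSB/EiJ in batch 3 at 20.6 CPM. Few counts lie behind these values: Pde1c gave 434 counts in astrocytes of all 32 mice. At 1000 UMIs a Pde1c UMI was expected in 2.76% of astrocytes (5.84% without thinning). Pde1c there was at 9.04% of the projection neuron mean, beside 5.22% to 82.4% for the 5 neuronal genes, and the part of RNA from neurons was not tested. The strain term had an adjusted p of 9.93e-15, and the interaction with Drd1+ neurons, also added after the values were seen, 1.37e-19. Of the 8 genes that passed the filter in both Drd1+ neurons and astrocytes, Pde1c was the 1 called in that interaction, beside 11.4% of all genes. Pde7b missed the threshold of that interaction (adjusted p = 0.101). It passed with no filter on low counts (0.0323), with at least 30 nuclei (0.0296) and without batch 3 (0.0216). Pde8b in astrocytes passed with an adjusted p of 0.0326 (A/J 584 CPM ± 107, NOD/ShiLtJ 425 ± 54.4), but not without batch 1 (0.495), batch 2 (0.139) or batch 4 (0.219), nor with no replicate block (0.112) or in DESeq2 (0.0707).

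**Figure D4:**
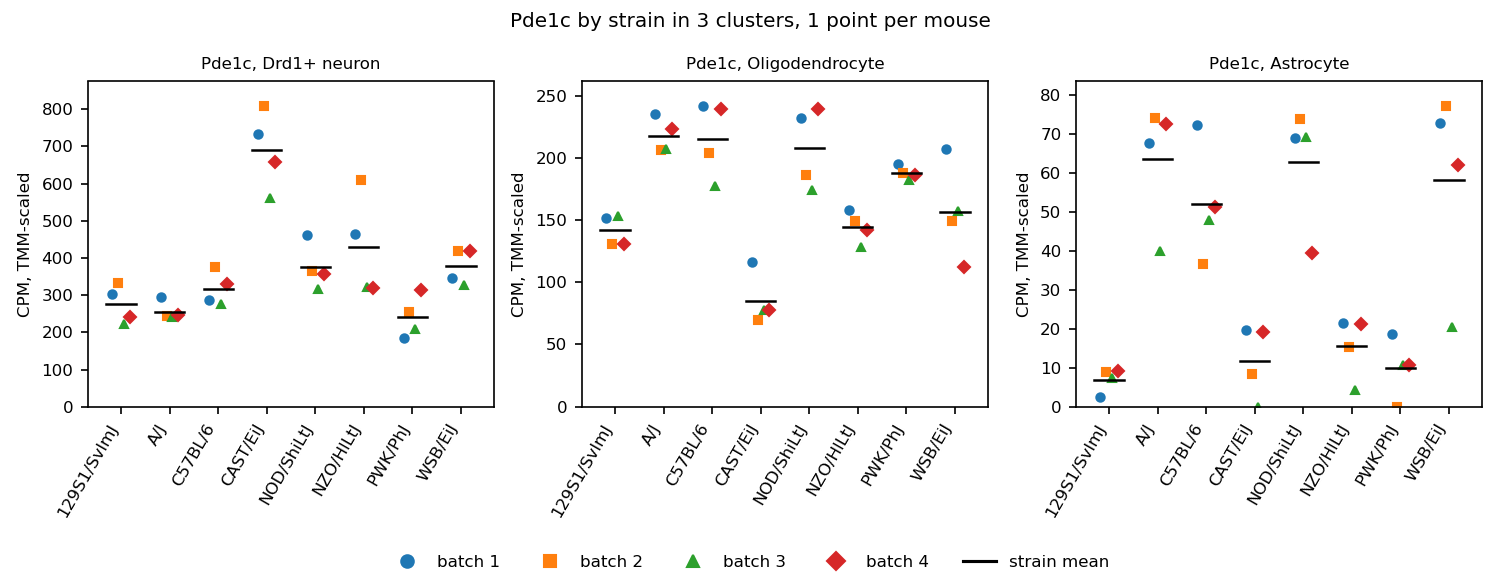
TMM-scaled CPM of Pde1c (y axis, from 0, a separate scale per panel) by strain (x axis) in Drd1+ neurons, oligodendrocytes and astrocytes, 1 point per mouse and the strain mean as a bar. CAST/EiJ is highest in Drd1+ neurons at 691 CPM and lowest in oligodendrocytes at 85.4 CPM, and astrocytes divide into 4 high and 4 low strains.

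Pde3a in oligodendrocytes was low in all strains, yet differed among them (adjusted p = 9.93e-14). WSB/EiJ had 53.7, 78.1, 78.6 and 61.6 CPM and NZO/HlLtJ 27.0, 64.3, 55.7 and 73.3, while CAST/EiJ had 3.32, 7.97, 0 and 5.3 and PWK/PhJ 9.98, 13.6, 0 and 12.8. WSB/EiJ and NZO/HlLtJ lay above all mice of CAST/EiJ and PWK/PhJ, whose 4 mice each gave 9 and 21 counts in all. At 1000 UMIs, 2.69% of oligodendrocytes were expected to hold a Pde3a UMI (4.25% without thinning), beside 0.0809% of Drd1+ nuclei. Pde4b, at its highest in these cells, varied little: A/J had 9402, 8433, 8741 and 9773 CPM and PWK/PhJ 7483, 7190, 7577 and 7657. Its strain term (adjusted p = 0.0184) was lost without batch 1 (0.304), without batch 4 (0.179) and with no replicate block (0.0558). The added interaction of Drd1+ neurons and oligodendrocytes called Pde1c, Pde4d, Pde4b (adjusted p = 1.15e-07) and Pde8b (0.00953), 4 of the 8 genes that passed the filter in each of the 2 clusters, beside 16.9% of all genes. Pde3a, with 98 counts in Drd1+ neurons of all mice, failed the filter in that cluster and entered this test through oligodendrocytes alone, so its value (4.06e-05) says nothing of strain in the neurons and is not counted. Pde8b in oligodendrocytes was at 5.04% of the projection neuron mean, near the 4.82% of Rgs9, the lowest of the 5 neuronal genes there (up to 73.8%). Expression by these cells and RNA from neurons cannot be told apart for Pde8b. Its strain term in oligodendrocytes was not called (adjusted p = 0.192). The interaction call of Pde8b was lost without batch 2 (0.135) and without batch 4 (0.184), and in DESeq2 (0.171).

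In macrophages 4 of 5 tested genes were called beside 24.8% of all 3858 genes. Besides Pde4d these were Pde1b (WSB/EiJ 147 CPM ± 12.3, PWK/PhJ 50.5 ± 17.4, adjusted p = 0.00246), Pde8b (PWK/PhJ 156 ± 52.9, CAST/EiJ 36.5 ± 24.5, adjusted p = 0.00836) and Pde10a (PWK/PhJ 229 ± 99.9, NZO/HlLtJ 102 ± 58.5, adjusted p = 0.0349). Without batch 2 the Pde1b call was lost (0.0535), without batch 3 that of Pde8b (0.132), and Pde10a was lost without batch 2 (0.145), 3 (0.0622) or 4 (0.269), in DESeq2 (0.103), with no filter on low counts (0.0799) and with no replicate block (0.558). The 5 neuronal genes summed to 110 to 377 CPM in the macrophages of a mouse, where Pde10a had 115 CPM ± 61.4. Pde8b in macrophages was at 15.7% of the projection neuron mean and the 5 genes together at 15.1%. Strain values are given for 4 of the 5 genes. Rgs9 there was, like Pde8b, highest in PWK/PhJ (73.6 CPM) and lowest in CAST/EiJ (35.4 CPM). Drd1 was highest in PWK/PhJ (40.8 CPM), as Pde10a was, whereas Bcl11b was highest in CAST/EiJ (74.9 CPM) and Ppp1r1b in NOD/ShiLtJ (192 CPM). The part of RNA from neurons in the Pde10a and Pde8b results was not tested.

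Drd1+ neuron_2 had 7 of 9 tested genes called, beside 17.3% of all 5544 genes: Pde4b, Pde10a, Pde1c, Pde7b, Pde2a, Pde1b and Pde4d. Pde4b was again high in NZO/HlLtJ, with 3788, 4348, 3561 and 3812 CPM, but there A/J (3741, 3620, 4184 and 3978) and C57BL/6 (3886, 3635, 3626 and 3660) overlapped with it (adjusted p of the strain term 1.04e-09). PWK/PhJ had 2173, 2178, 2357 and 2828 CPM, below all mice of these 3 strains. Pde10a ran from 1934 ± 280 in WSB/EiJ to 3234 ± 169 in C57BL/6 (adjusted p = 2.34e-05). Rgs9 in this cluster was at 512 CPM in WSB/EiJ, 501 in NZO/HlLtJ and 743 in C57BL/6, and Bcl11b was lowest in WSB/EiJ (263 CPM), while Drd1 was lowest in PWK/PhJ (168 CPM). Their part in the results of Pde10a and Pde7b was not tested. Pde7b, which was not called in the larger neuron clusters, was called here, with 1205, 1222, 1658 and 1119 CPM in C57BL/6 above the 668, 707, 783 and 769 of WSB/EiJ (adjusted p = 0.00034). Whether the strain effect on Pde7b differs between this cluster and Drd1+ neurons was not tested. Without batch 2 only 3 of the 7 calls held the threshold, the calls of Pde1c (0.108), Pde2a (0.0761), Pde1b (0.181) and Pde4d (0.154) being lost. Pde1b and Pde4d were also lost without batch 1 (0.152 and 0.102), Pde2a without batch 4 (0.143) and Pde4d with no replicate block (0.121).

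The 3 other tested clusters gave few calls, and few nuclei lie behind them. In Nxph1+ interneurons 0 of 9 tested genes were called by edgeR, beside 1.53% of all 3987 genes, and Pde1a came nearest (unadjusted p = 0.0507, adjusted p = 0.368, 524 CPM ± 199 in NZO/HlLtJ and 103 ± 72.5 in A/J). None of the 9 was called by DESeq2 or under any other setting, and none had an unadjusted p under 0.05 in edgeR. In endothelium 1 of 9 was called, Pde4b (NOD/ShiLtJ 1054 CPM ± 477, C57BL/6 337 ± 114, adjusted p = 0.00637), beside 3.23% of all 4986 genes, a call lost without batch 1 (0.0572) or batch 2 (0.0989) and with no replicate block (0.558). In the cluster Polydendrocyte/Oligodendrocyte 1 of 6 was called, Pde1c (adjusted p = 0.0398), beside 1.24% of all 2099 genes, and the call was lost without batch 1 (0.106), 2 (0.279) or 4 (0.669).

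Whether strain acts alike on the direct and indirect pathway neurons was tested as an interaction of strain and neuron type, with a block for each mouse. Of 9 tested genes 3 were called, Pde8b, Pde7b and Pde1c, beside 4.58% of all 13791 genes. For Pde8b (adjusted p = 2.72e-05), the log2 ratio of Drd2+ to Drd1+ neurons was below 0 in all 4 CAST/EiJ mice (-0.23, -0.21, -0.12 and -0.14) and above 0 in all 4 of NZO/HlLtJ (0.21, 0.22, 0.08 and 0.12). For Pde7b (adjusted p = 0.000706) the ratio was highest in 129S1/SvImJ, at 0.23, 0.22, 0.21 and 0.19, and averaged 0.00 ± 0.06 in CAST/EiJ (SD, n = 4). For Pde1c (adjusted p = 0.0349) the mean ratio was 0.29 ± 0.05 in A/J and -0.22 ± 0.11 in CAST/EiJ, and the call was lost without batch 2 (adjusted p = 0.249). With no replicate block, where batch stands in for the mouse, none of the 3 passed (adjusted p = 0.539 for Pde8b, 1.0 for Pde7b and 1.0 for Pde1c). Pde4d missed the threshold (adjusted p = 0.0823) but passed it without batch 1 (0.0355) and in DESeq2 (0.00293). Pde10a, Pde1b, Pde2a and Pde4b had adjusted p of 0.949, 0.951, 0.686 and 0.761, which does not show that strain acts alike on both neuron types.

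**Figure D5:**
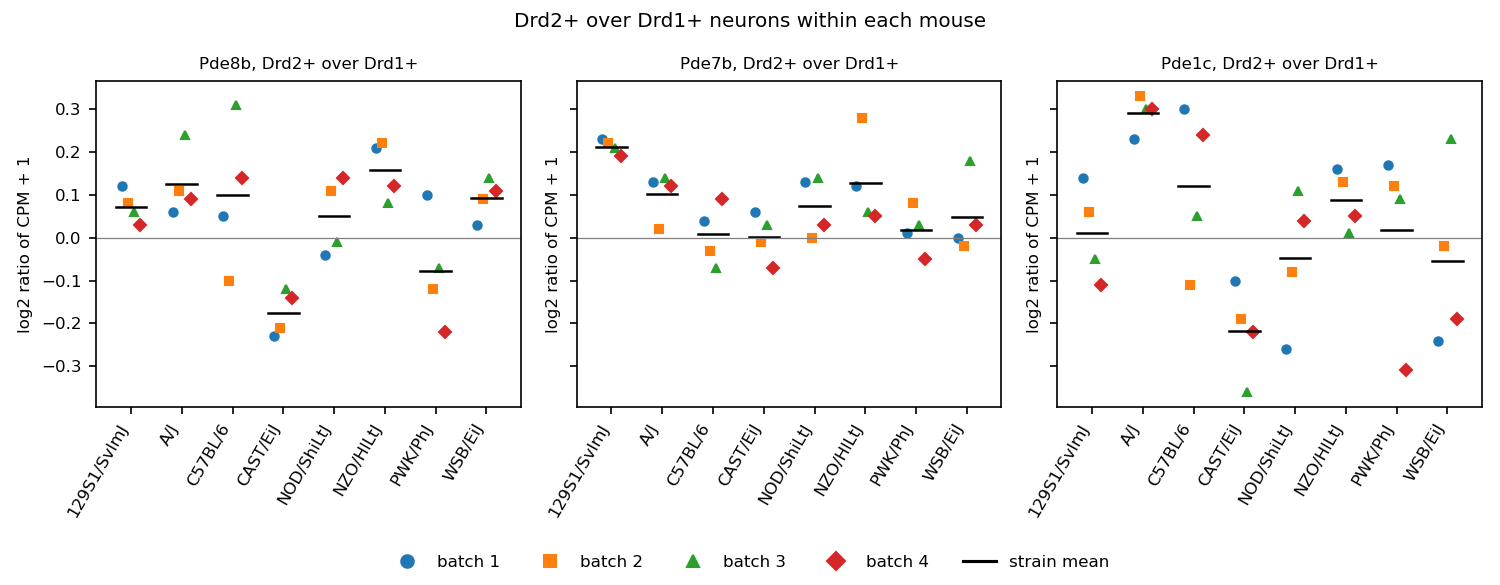
Log2 ratio of CPM + 1 between the Drd2+ and the Drd1+ neurons of each mouse (y axis, above 0 where Drd2+ is higher) by strain (x axis) for Pde8b, Pde7b and Pde1c, with 1 point per mouse and the strain mean as a bar. CAST/EiJ mice lie below 0 for Pde8b and Pde1c, and 129S1/SvImJ mice lie near 0.21 for Pde7b.

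Other genes of the pathway were described from 3 lists of other phosphodiesterases, cyclases and effectors. Of the 14 other phosphodiesterase genes, 6 of 9 tested were called in Drd1+ and 5 of 8 in Drd2+ neurons, close to the 61.7% and 55.9% of all genes. Pde9a, a cGMP-specific enzyme, led them in Drd1+ neurons, with 37.4 CPM ± 7.96 in NOD/ShiLtJ and 9.4 ± 1.19 in PWK/PhJ (adjusted p = 1.15e-18). Pde4a followed (NOD/ShiLtJ 159 ± 24.1, A/J 104 ± 10.9, adjusted p = 1.35e-05), then Pde7a (CAST/EiJ 94.0 ± 6.22, NOD/ShiLtJ 67.2 ± 10.2, adjusted p = 0.00091). In oligodendrocytes Pde7a and Pde4a were called of 4 tested (34.8% of all genes), and in macrophages, where 24.8% of all genes were called, Pde3b was called as the 1 tested (WSB/EiJ 2601 ± 258, CAST/EiJ 1467 ± 176, adjusted p = 9.19e-07).

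Of the 20 listed cyclases, which make cAMP or cGMP, 10 of 11 tested were called in Drd1+ and 10 of 10 in Drd2+ neurons, with a median F of 4.35 and 6.75 beside 3.38 and 2.95 for all genes. Gucy1b1, a subunit of soluble guanylyl cyclase, was highest in A/J and lowest in C57BL/6 in both (147 ± 16.4 and 103 ± 9.39 CPM in Drd1+ neurons, adjusted p = 8.68e-09). Adcy2, an adenylyl cyclase, led the list in astrocytes, where 5 of 10 tested were called beside 21.5% of all genes (NOD/ShiLtJ 928 ± 72.8, NZO/HlLtJ 343 ± 45.7, adjusted p = 6.77e-21). Of the 16 effectors, 5 of 13 tested were called in Drd1+ and 4 of 11 in Drd2+ neurons, below the 61.7% and 55.9% of all genes, with a median F of 2.43 and 2.48 beside 3.38 and 2.95. Prkg1, a cGMP-dependent kinase, was highest in NZO/HlLtJ in both (912 ± 140 CPM, beside 266 ± 156 in PWK/PhJ in Drd1+ neurons, adjusted p = 0.00037). Its relative Prkg2 led the effectors in Drd2+ neurons (NZO/HlLtJ 26.6 ± 4.95, CAST/EiJ 4.15 ± 1.39 CPM, adjusted p = 4.54e-05). In oligodendrocytes 2 of 6 cyclases and 3 of 8 effectors were called, beside 34.8% of all genes. In Drd1+ neuron_2 these were 3 of 6 other phosphodiesterases, 2 of 7 cyclases and 1 of 10 effectors, beside 17.3%. Astrocytes had calls for 0 of 4 other phosphodiesterases and 2 of 8 effectors (21.5% of all genes), and macrophages for 3 of 4 cyclases and 0 of 4 effectors (24.8%). In Nxph1+ interneurons, endothelium and the cluster Polydendrocyte/Oligodendrocyte no gene of the 3 lists was called by edgeR.

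Genes whose profile over the 18 clusters was most like that of a member, by Pearson's r of cluster means of log2 CPM among 9410 genes, were named as a description. The clusters share libraries, and no test was made. Pde10a was most like the transcript Gm28905 (r = 0.96) and the glutamate receptor gene Grm5 (r = 0.95), and Pde2a most like the potassium channel partner Kcnip2 (r = 0.94) and the kinase Camk4 (r = 0.92). Pde1c was most like Thsd7a (r = 0.91), Pde1b like Bcr (0.90), Pde8b like Shc3 (0.88) and Pde7b like the bicarbonate transporter gene Slc4a4 (0.87). For Pde1a, Pde4b, Pde3a and Pde4d the nearest genes were Snhg11 (0.86), Tmeff2 (0.81), Ano1 (0.80) and Tmem178 (0.77).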

How the data were processed

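Nuclei of the 32 mice were read in 4 batches. The deposited matrices hold counts of UMIs per gene and barcode, and the submitters' processing notes name Cell Ranger ARC 2.0.0, bcl2fastq 2.20.0.422 and mm10 (GRCm38). Per the authors' deposited file descriptions, strains and droplet types were called with Demuxlet on RNA and on ATAC reads, a quality filter kept nuclei with over 200 and under 7500 genes and under 15% mitochondrial reads, and DoubletFinder marked doublets. Nuclei with a cluster name in that table were used, with its batch, strain and cluster. The notes name 1 build for all strains, and what strain differences from it do to a gene's count was not tested.

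Counts were summed per mouse and cluster (at least 10 nuclei) with Python 3.11.15, numpy 2.4.6, pandas 2.3.3 and scipy 1.17.1. They were fitted with edgeR 4.0.16 (R 4.3.3, limma 3.58.1; TMM, filterByExpr by strain, robust quasi-likelihood) with strain and batch, or, between clusters, with the mouse as block. P-values were adjusted by the Benjamini-Hochberg method over all genes of a fit, with a threshold of 0.05. The SE of a contrast is its absolute log2 difference divided by the square root of its F statistic. It was not estimated apart from that test. Log2 ratios within a mouse used CPM + 1, and shares of nuclei with a UMI were computed for nuclei thinned to 1000 UMIs. There was no sex term. All members are named, and from each list some of the 3 called genes of largest F with a mean of at least 10 CPM. Some genes of the lists are not reported here and were left out of sums and counts. Genes most like a member are the 3 of highest r among genes with at least 50 CPM in a cluster. The members and lists were chosen with earlier results of these data known, and the 2 comparisons of Drd1+ neurons with glia were added after seeing the data.

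Batch is the pairing factor from the labels. Deviations of mice from strain means correlated by 0.14 in the mean within a batch and -0.05 across batches in Drd1+ neurons, and by 0.13 and -0.04 in Drd2+ neurons. Deviations from a strain mean cancel out over its mice. The value across batches therefore largely follows from that within a batch and is no separate comparison. Alternatives were no TMM, no filter, no replicate block, DESeq2 1.42.0, at least 30 nuclei, and leaving out each batch. Fits were tested on simulated data. Intervals between mice cover 4 mice per strain.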

Additional observations from a re-analysis of the deposited data

Results flagged for a closer look

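In 9 of 192 groups of 4 mice, 1 mouse stood further from the others than Dixon's 95% limit for 4 values, where chance gives about 1 in 20. A/J gave 4 of them: in batch 3, Pde1b in Drd1+ neurons (187 CPM, others 242 to 252) and Pde8b in Drd1+ (396 CPM, others 483 to 491) and Drd2+ neurons (466 CPM, others 512 to 521), and in batch 1, Pde1c in Drd1+ neurons (294 CPM, others 240 to 247). In Drd1+ neurons the others were Pde1a in 129S1/SvImJ, batch 2 (174 CPM, others 44.4 to 60.4), Pde2a in PWK/PhJ, batch 4 (206 CPM, others 251 to 255), and Pde4d in NOD/ShiLtJ, batch 1 (167 CPM, others 143 to 145). Pde7b in Drd2+ neurons of WSB/EiJ, batch 3, was at 2204 CPM (others 1378 to 1484), and Pde1c in astrocytes of NOD/ShiLtJ, batch 4, at 39.4 CPM (others 69.1 to 74.0).

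A strain effect that differed between clusters was called in 8 interaction tests of edgeR. Between Drd1+ and Drd2+ neurons these were Pde8b (adjusted p = 2.72e-05), Pde7b (0.000706) and Pde1c (0.0349). All 3 were lost with no replicate block (0.539, 1.0 and 1.0), and Pde1c without batch 2 (0.249). Between Drd1+ neurons and oligodendrocytes they were Pde1c (1.71e-17), Pde4d (2.31e-16), Pde4b (1.15e-07) and Pde8b (0.00953), and between Drd1+ neurons and astrocytes Pde1c (1.37e-19). Of these the Pde8b call was lost without batch 2 (0.135), without batch 4 (0.184) and in DESeq2 (0.171). Pde3a also passed between Drd1+ neurons and oligodendrocytes (4.06e-05), but it was near absent from Drd1+ neurons (98 counts over all mice) and not testable there, so no difference between the clusters is claimed for it.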

How the results depend on the processing

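Of 34 called pairs of gene and cluster, 20 kept their call in each alternative run, as did 31 of 39 pairs not called and 24 of 47 contrasts, and no direction reversed. With no filter on low counts, 2 genes were called in endothelium (1 in the reported fit), 2 in the cluster Polydendrocyte/Oligodendrocyte (1), 39 contrasts in Drd1+ neurons (24) and 2 interactions of Drd1+ neurons with astrocytes (1, and 2 with a minimum of 30 nuclei). DESeq2 called 2 in endothelium. The cause was not tested. Shares of all genes called in the alternative runs are not given here. Counts in this section therefore do not tell a change of the members from a change of the whole fit. With no replicate block, 7 genes were called in Drd1+ neurons, 6 in Drd1+ neuron_2, 7 in Drd2+ neurons, 3 in macrophages, 2 in astrocytes, 3 in oligodendrocytes, 0 in Nxph1+ interneurons, 0 in endothelium and 1 in Polydendrocyte/Oligodendrocyte, with 18 and 16 contrasts in Drd1+ and Drd2+ neurons and 0 interactions of these 2 neuron types (3 with the mouse as block). Leaving out 1 batch at a time gave 1 to 4 calls in astrocytes, 2 to 3 in macrophages, 3 to 7 in Drd1+ neuron_2, 0 to 2 in endothelium, 0 to 1 in Polydendrocyte/Oligodendrocyte, 19 to 22 contrasts in Drd1+ neurons, 2 to 4 interactions of Drd1+ and Drd2+ neurons and 1 to 2 of Drd1+ neurons with astrocytes. In Polydendrocyte/Oligodendrocyte and macrophages, which had the lowest median counts per mouse of the 9 clusters (59127 and 113960), 6 and 5 of the 10 genes passed the filter.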
